A study of Mus musculus with 8 samples.

Results

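The oligodendrocyte lineage and myelin genes described here are 31 of the 55416 genes in the count table, chosen by symbol because they mark the cells that make myelin. They comprise 3 transcription factors of the whole lineage, 2 genes of oligodendrocyte precursors, 4 genes of newly formed oligodendrocytes and 22 genes of myelinating oligodendrocytes. mRNA was sequenced from the cerebral cortex of mice with the genotype AGO2_L192P/+ (L192P) and of wild-type mice (WT), in 4 libraries per genotype. The L192P mice carried 1 changed copy of Ago2, made by CRISPR/Cas editing of C57BL/6JUke embryos, and were bred by crossing heterozygous with WT animals after founders had been crossed to C57/Bl6 mice. The labels give neither age nor sex, and no group received a treatment. They also do not say that each library came from its own animal, so p-values measure the spread between these libraries, which may in part be technical. The comparison asked which transcripts differ in level between the cortex of both genotypes.

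Oligodendrocytes arise from dividing precursors that carry the receptor for platelet-derived growth factor and the proteoglycan NG2. Precursors leave the cell cycle, pass through a short-lived newly formed stage and then wrap axons in myelin, a membrane rich in galactolipids and in a small set of structural proteins. In the rodent cortex this goes on for months after birth, and the level of myelin transcripts depends on age and on how much white matter a dissection takes in. Argonaute 2, the protein made from Ago2, holds a miRNA and brings it to matching sites in target mRNAs, whose level or translation then falls. Members of the miR-219, miR-338 and miR-23 families are known to promote the maturation of this lineage.

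The mature sequences of 3 of these miRNAs are shown because the protein changed in these mice is the one that carries them. Capitals mark the seed, bases 2 to 8 from the 5′ end, and the sequences are from RefSeq on GRCm38.p6.
miR-219a-5p: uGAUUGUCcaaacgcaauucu
miR-338-3p: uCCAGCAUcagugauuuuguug
miR-23a-3p: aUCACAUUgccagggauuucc

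Exact 7-base matches to these seeds were counted, on the transcript strand, in the 3′ UTR of the canonical GENCODE M39 transcript, which was at hand for 30 of the 31 genes, Mag being the exception. The match to miR-219a-5p (GACAATC) was in 1 of 30, Pdgfra, and in 5.54% of the 14869 tested genes with such a UTR. The match to miR-338-3p (ATGCTGG) was in 5 of 30 (Cldn11, Gjc3, Gpr17, Mal and Tmem88b) and in 16.4% of all. The match to miR-23a-3p (AATGTGA) was in 3 of 30 (Ermn, Lpar1 and Ugt8a) and in 17.8% of all, and no gene held matches to more than 1 of the miRNAs. The 30 UTRs had a median length of 1483.5 bases, against 1362 for all tested genes. A site of each kind is printed below with its match in capitals, as GRCm39 sequence on the strand of the gene.
Pdgfra, miR-219a-5p, chr5:75358358-75358383, plus strand: tttctatttttatgatGACAATCaaa
Cldn11, miR-338-3p, chr3:31217476-31217501, plus strand: cgccgaggtgctgtaaATGCTGGgcc
Mal, miR-338-3p, chr2:127475596-127475621, minus strand: aacccagggggtttgcATGCTGGgta
Ugt8a, miR-23a-3p, chr3:125659035-125659060, minus strand: tttgtatgtatatatgAATGTGAaaa
The log2 fold changes of the genes with a match, from L192P over WT, were -0.06 for Pdgfra, between -0.11 (Cldn11) and 0.01 (Gpr17) for the miR-338-3p group, and -0.19 for Lpar1, -0.14 for Ugt8a and 0.01 for Ermn. No gene with a match passed the test described next. A match describes the letters of a UTR and does not show that a miRNA acts there.

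Each library had between 20396357 and 43575900 counts. Counts divided by DESeq2 size factors are called normalized counts here. The normalized counts of Ago2 itself were 2291 ± 75.1 for L192P and 2246 ± 130 for WT libraries (SD, n = 4). Its log2 fold change was 0.03 (DESeq2 adjusted p = 0.968), and counts per gene do not separate its edited from its normal copy. Replicate 1 of either genotype stood apart from the other libraries. Xist, a transcript of the inactive X chromosome, was at 0.93 and 1.82 normalized counts in L192P replicate 1 and WT replicate 1, and between 5185 and 7257 in the other 6 libraries. Results that rest on replicate 1 are therefore given with and without it.

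All 31 genes were measured and tested, with no value of any gene below 195.8 normalized counts (Cspg4 in WT replicate 1). The genes together took between 0.396% and 0.585% of the counts of a library. None of the 31 was called at a DESeq2 adjusted p under 0.05 (Benjamini-Hochberg over all tested genes), where 253 of 18627 tested genes (1.36%) were called. At an unadjusted p under 0.05, DESeq2 and the quasi-likelihood test of edgeR each gave 1 of the 31, Hapln2. The share of all tested genes below this p in DESeq2 was 9.44%. Single libraries moved this count, which was 11 without WT replicate 1, 4 without L192P replicate 3, 2 without L192P replicate 2, and 0 without L192P replicate 4 or without WT replicate 2. Counts over all genes moved as well: without WT replicate 1, 496 genes (3.24%) were called at a DESeq2 adjusted p under 0.05. The share of all tested genes below the unadjusted p was not taken in these fits. The counts are therefore not read as a result about the 31 genes. The point estimates lay mostly on one side. The log2 fold change was below 0 for 28 of the 31 genes (90.3%) and for 49.4% of all tested genes, with a median of -0.11 over the 31 and 0.00 over all. Many of these genes are transcribed in the same cells, and all were read from the same libraries, so they are not independent measurements. In whole cortex, the number of oligodendrocytes, the RNA in each and the white matter taken in by a dissection cannot be told apart.

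The size of a genotype difference was estimated with an interval for each gene, in the fit with genotype as the only term. These intervals leave the shared replicate numbers out of account and are not adjusted for the number of genes. The 95% interval of the log2 fold change stayed within 1 log2 unit of 0 for all 31 genes and within 0.5 for 26 of them, and it left out 0 for 1, Hapln2. It was narrowest for Tspan2, a tetraspanin of early myelinating cells, at -0.23 to 0.06. It was widest for Bcas1, a gene of newly formed myelinating cells, at -0.90 to 0.65.

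**Figure D1:**
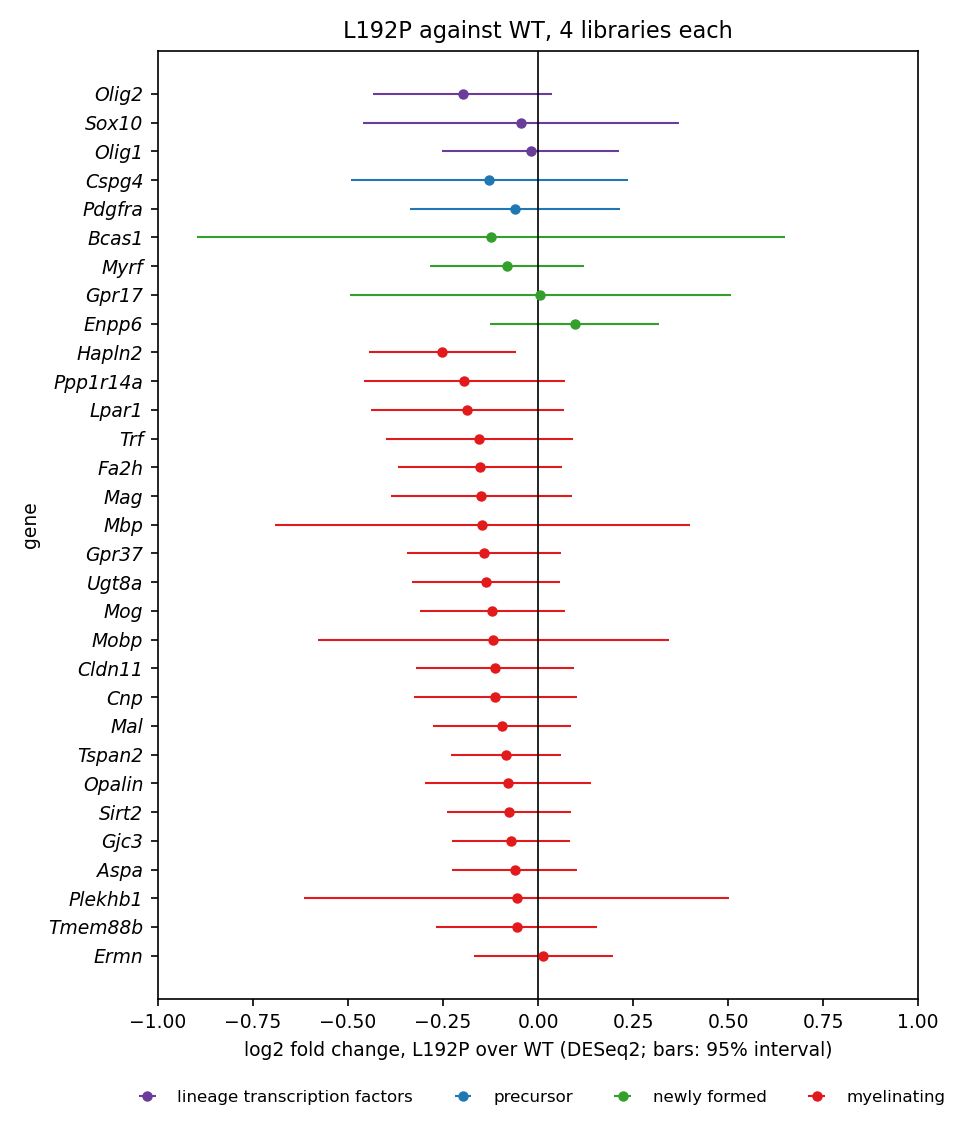
Log2 fold change of L192P over WT (x axis) for each of the 31 genes (y axis), coloured by stage, as DESeq2 points with 95% intervals from 4 libraries per genotype. Of the 31 points, 28 lie left of 0, and the interval of Hapln2 alone leaves out 0.

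Olig1, Olig2 and Sox10 encode transcription factors kept through the whole lineage. Their log2 fold changes were below 0 in 3 of 3, with a median of -0.04 (DESeq2 estimates), and the smallest adjusted p by DESeq2 was 0.661. Olig2 (chr16:91019435-91025567, plus strand, GRCm39), needed to specify the lineage, was at 888.5, 1316, 1177 and 963 normalized counts in L192P replicates 1 to 4, and at 1067, 1370, 1296 and 1247 in the WT replicates. The groups overlapped, with L192P replicates 1 and 4 below every WT library. The log2 fold change was -0.20 ± 0.12 (SE). Between libraries with the same replicate number, the log2 differences of L192P from WT were -0.26, -0.06, -0.14 and -0.37 for replicates 1 to 4. The DESeq2 unadjusted p of Olig2 was 0.0992, and 0.00811 with the replicate number as a block, where the adjusted p was 0.122.

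Sox10, which switches on myelin genes, was at 1070, 1536, 1380 and 1133 normalized counts in L192P, and at 901, 1442, 1597 and 1340 in WT, which gave -0.04 ± 0.21 as the log2 fold change. Its lowest library was WT replicate 1, and the other WT libraries lay among or above those of L192P. Olig1, a close relative of Olig2, had the most normalized counts per kilobase of exon of the 3, 1699 in L192P and 1721 in WT. Its normalized counts were 2919, 4341, 3951 and 3477 in L192P and 3078, 4136, 4093 and 3574 in WT, with a log2 fold change of -0.02 ± 0.12. Replicate 1 was the lowest library of either genotype for Olig1.

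Precursors were represented by the receptor gene Pdgfra and by Cspg4, which encodes NG2. Both had a log2 fold change below 0, and the smaller DESeq2 adjusted p was 0.939. Pdgfra (chr5:75311994-75358876, plus strand), the receptor that keeps precursors dividing, was at 768, 1106, 1045 and 921 normalized counts in L192P, and at 728, 1186, 1038 and 1050 in WT, with a log2 fold change of -0.06 ± 0.14. The 2 lowest of the 8 libraries were replicate 1 of either genotype. Cspg4 was at 202, 265, 311 and 325 normalized counts in L192P, and at 196, 328, 360 and 321 in WT, with a log2 fold change of -0.13 ± 0.19, and again had replicate 1 lowest in both groups. Fibroblasts also express Pdgfra and pericytes Cspg4. The 6 fibroblast markers measured here (Dcn, Col1a1, Col1a2, Lum, Igf2 and Slc6a13) had log2 fold changes above 0 in 6 of 6, a median of 0.49 and summed normalized counts of 851 to 1601 in L192P and 739 to 1062 in WT. Of the 6, 3 had an unadjusted p under 0.05, against 9.44% of all tested genes, and Slc6a13 was called higher (DESeq2 adjusted p = 0.0229). With the replicate number as a block, Col1a2 was called higher too, in a fit that called 533 of 12536 tested genes. The 5 mural cell markers had a median log2 fold change of 0.09 and sums of 1481 to 2929 and 1676 to 2815, with none called, and in neither list was a marker at 0 in every library. The part of these cells in the values of Pdgfra and Cspg4 was not tested.

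Newly formed oligodendrocytes were represented by Gpr17, Enpp6, Bcas1 and Myrf. Of the 4, 2 had a log2 fold change below 0 and 2 above, the median was -0.04, and the smallest DESeq2 adjusted p was 0.914. Enpp6, a choline phosphodiesterase marking cells that have just left the precursor state, was at 248.5, 289, 274 and 244 normalized counts in L192P, and at 233, 237, 256 and 265 in WT. Its log2 fold change of 0.10 ± 0.11 was the highest of the 31 genes, and its groups overlapped. Myrf, the factor that starts myelin gene transcription, was at 1631, 2029, 1840 and 1525 normalized counts in L192P, and at 1592, 1803, 2087 and 1954 in WT, with a log2 fold change of -0.08 ± 0.10.

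Bcas1 (chr2:170188911-170269765, minus strand) had the most normalized counts per kilobase in this stage, 395 in L192P and 431 in WT. It was at 764, 1622, 1949 and 1635 normalized counts in L192P, and at 819, 1982, 1683 and 2021 in WT. Replicate 1 had fewer counts than any other library in both groups, the remaining values overlapped, and the log2 fold change was -0.12 ± 0.40. Gpr17, a receptor present for a short time before myelination, had a log2 fold change of 0.01 ± 0.26.

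The myelinating stage held the other 22 genes. The log2 fold change was below 0 for 21 of them, ran from -0.25 (Hapln2) to 0.01 (Ermn) and had a median of -0.12, and none was called. Hapln2 (chr3:87926800-87934890, minus strand) encodes a link protein of the matrix at nodes of Ranvier. It was at 674.5, 694, 698 and 571 normalized counts in L192P, and at 713, 869, 829 and 725 in WT. Each L192P library lay below each WT library, which held for 1 of the 31 genes and for 2.96% of all tested genes. The log2 fold change was -0.25 ± 0.10, with an interval in fold of 0.735 to 0.960, an unadjusted p of 0.0104 and a DESeq2 adjusted p of 0.254. The adjusted p of Hapln2 ranged from 0.0893 to 0.715 over 16 alternative analyses, none of which called it.

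Ppp1r14a, an inhibitor of myosin phosphatase, was at 543, 561, 722 and 549 normalized counts in L192P, and at 511, 711, 794 and 700 in WT, with a log2 fold change of -0.19 ± 0.13 (DESeq2 adjusted p = 0.747). L192P replicate 3 lay with WT replicates 2 to 4, and WT replicate 1 lay below every L192P library. Mal (chr2:127475142-127498615, minus strand), a membrane proteolipid that sorts lipids and proteins to myelin, had the most normalized counts per kilobase of all 31 genes, 3214 in L192P and 3432 in WT. Its normalized counts were 8106, 10060, 9791 and 8348 in L192P and 8581, 9591, 11100 and 9505 in WT. The groups overlapped, and the log2 fold change was -0.09 ± 0.09.

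The genes of structural myelin proteins had log2 fold changes between -0.15 and -0.11. Mbp, myelin basic protein, was singled out after its values were seen, because it had the most counts of the 31 genes. It was at 16360, 30000, 34470 and 26620 normalized counts in L192P, and at 16860, 34450, 32840 and 34800 in WT, with a log2 fold change of -0.15 ± 0.28. Replicate 1 of either genotype was at about the same level, far below the rest, and L192P replicate 3 lay within the range of WT replicates 2 to 4. The other log2 fold changes of this kind were -0.12 for Mobp (a basic protein like Mbp), -0.12 for Mog and -0.15 for Mag (surface glycoproteins of the outer and inner myelin membrane), -0.11 for Cnp (a phosphodiesterase that keeps cytoplasmic channels open) and -0.11 for Cldn11 (the claudin of myelin tight junctions).

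Genes of myelin lipid synthesis were Ugt8a, which makes galactosylceramide, Fa2h, which hydroxylates its fatty acid, and Aspa, which frees acetate from N-acetylaspartate. Their log2 fold changes were -0.14, -0.15 and -0.06. Aspa, named after its values were seen, varied least between libraries, at 520, 504, 535 and 499.5 normalized counts in L192P, and at 517, 512, 575 and 551 in WT. Trf, the iron carrier transferrin, had a log2 fold change of -0.15 ± 0.13. Its normalized counts were 8434, 10620, 11520 and 9450 in L192P and 8086, 11810, 12090 and 12570 in WT, so that L192P replicates 2 to 4 lay below WT replicates 2 to 4 while replicate 1 was lowest in both groups.

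The remaining 9 myelinating genes had log2 fold changes between -0.19 and 0.01. The receptors Lpar1 (for lysophosphatidic acid) and Gpr37 (which restrains differentiation) were at -0.19 and -0.14. The gap junction gene Gjc3 was at -0.07, the deacetylase Sirt2 at -0.08, the tetraspanin Tspan2 at -0.09, and the membrane proteins Opalin, Tmem88b and Plekhb1 at -0.08, -0.06 and -0.06. Ermn, an actin-binding protein of mature cells, was at 0.01, with 2333, 2743, 2467 and 2042 normalized counts in L192P and 2167, 2251, 2613 and 2468 in WT. The highest and the lowest of these 8 values both came from L192P libraries.

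**Figure D2:**
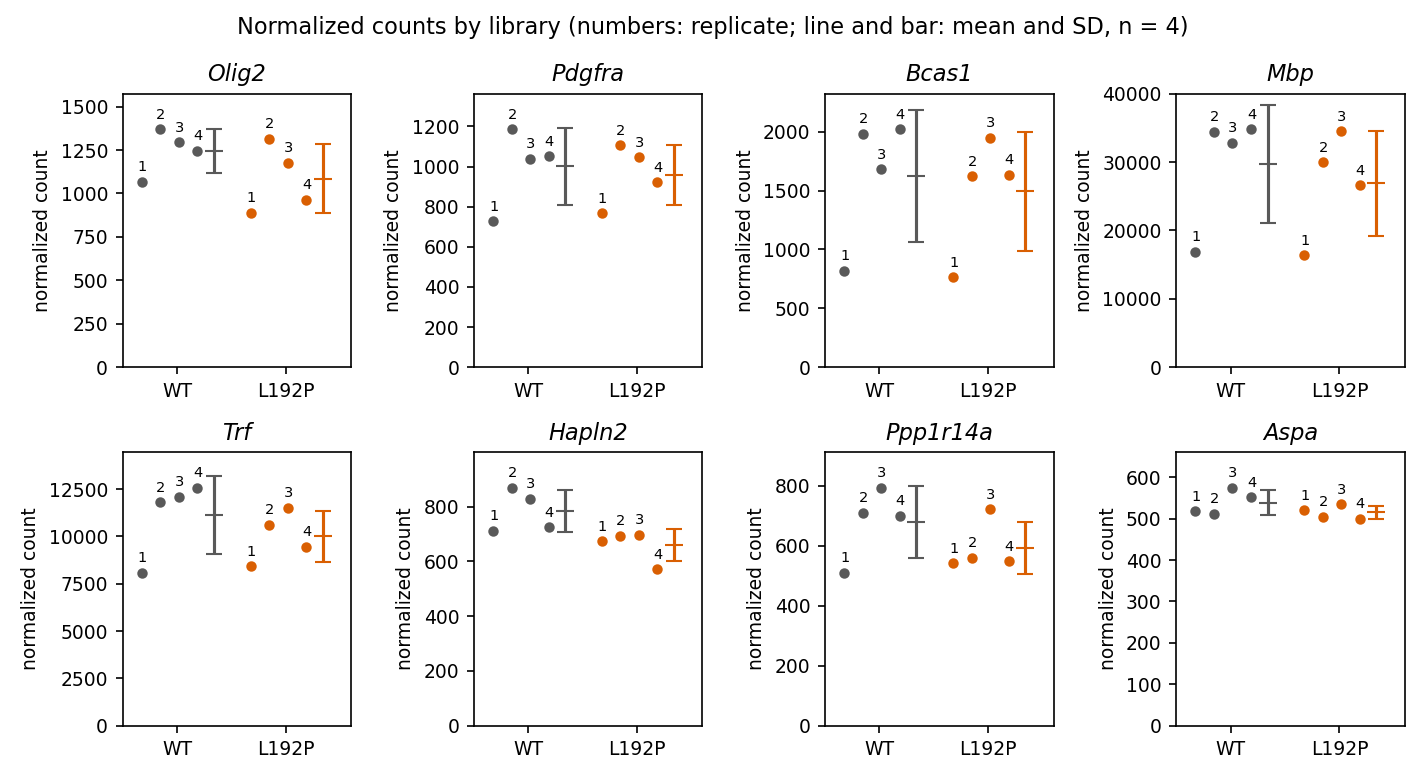
Normalized counts (y axis) of 8 of the genes in each WT and L192P library, with points numbered by replicate and the mean and SD (n = 4) beside them. Replicate 1 is lowest in both genotypes for Olig2, Pdgfra, Bcas1, Mbp, Trf and Ppp1r14a. Aspa lies between 499.5 and 575 in all 8 libraries, and only Hapln2 has no overlap between genotypes.

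Within each genotype the libraries spread widely. The normalized counts of the 31 genes summed to 95570, 130995, 140701 and 113472 in L192P replicates 1 to 4, and to 95648, 139592, 144454 and 140604 in the WT replicates. Replicate 1 thus had nearly the same sum in both genotypes, and L192P replicate 4 was the lowest of the other 6 libraries. Replicate 1 was the lowest library for 21 of the 31 genes within L192P and for 30 within WT. This was not particular to these genes. Replicate 1 was also lowest in both genotypes for each of 7 astrocyte, 6 microglia and 5 endothelial markers. Aldoc, an astrocyte marker, was at 10860 normalized counts in L192P replicate 1, at 11140 in WT replicate 1 and at 16650 to 18230 elsewhere. Excitatory neuron markers differed: Camk2a was lowest in replicate 1 of both genotypes, but the highest L192P value of Slc17a7, 32580, was in replicate 1.

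Replicate 1 was set against the mean of the other 3 libraries of its genotype on a log2 scale. Across the 31 genes this difference ran from -1.18 to 0.04 in L192P and from -1.21 to -0.08 in WT. It was below -0.5 for 6 genes in L192P and for 11 in WT, and for 2.38% and 1.84% of 10627 genes with a mean of at least 200 normalized counts. The 6 genes below -0.5 in both genotypes were Bcas1, Cspg4, Gpr17, Mbp, Mobp and Plekhb1, and 99 of the 10627 genes met the same limit. Bcas1 in replicate 1 was at 43.6% of its mean in the other libraries and Mbp at 51.6%, while Aspa was at 98%. The medians by stage were -0.49 in L192P and -0.68 in WT for the precursor genes, -0.39 and -0.56 for the newly formed stage, -0.37 and -0.35 for the transcription factors and -0.20 and -0.38 for the myelinating genes. Genes with the same cellular role differed: among structural proteins, Mbp and Mobp lay below -0.5 in both genotypes, whereas Cldn11 was at -0.24 and -0.28. The replicate 1 libraries also differed from the rest in Xist, and no other library had low Xist, so that difference and the replicate number cannot be told apart.

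**Figure D3:**
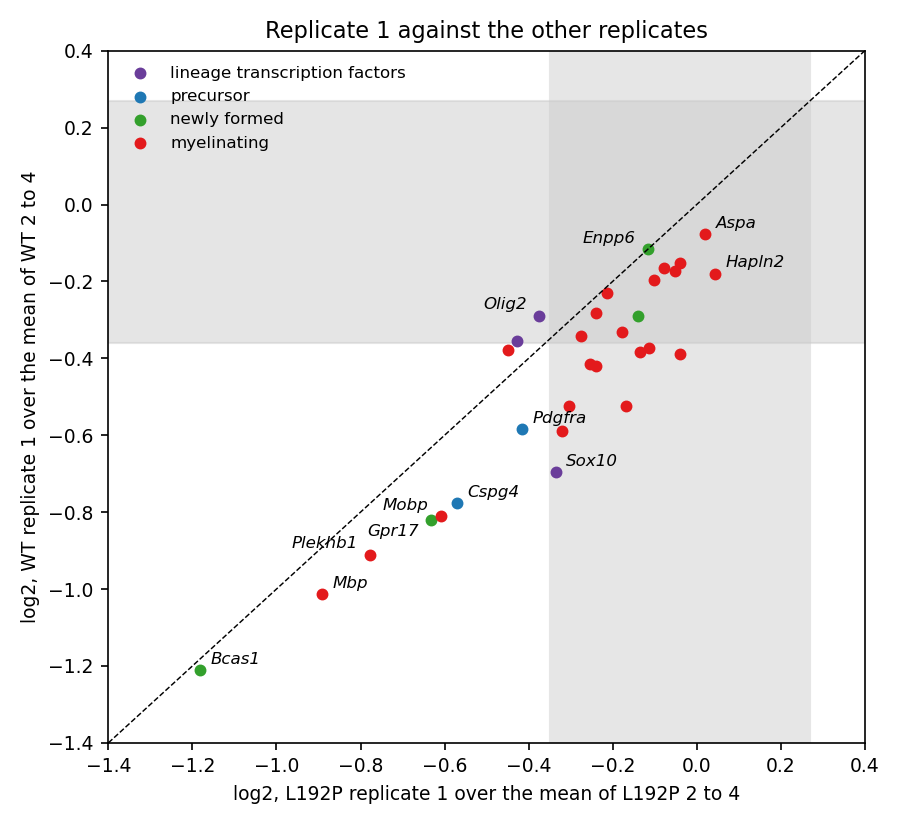
Log2 difference of replicate 1 from the mean of the other 3 replicates in L192P (x axis) and in WT (y axis), 1 point per gene coloured by stage, with equality as a dashed line and the 5th to 95th percentile of 10627 genes in grey. Bcas1 and Mbp lie farthest from 0 in both genotypes, and Aspa lies within 0.1 of 0.

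The genotype difference was also uneven over the replicate numbers, which the labels give to both groups. Between libraries with the same number, the median log2 difference of L192P from WT over the 31 genes was 0.03, -0.04, -0.08 and -0.29 for replicates 1 to 4. L192P was below WT for 12 of 31 genes in replicate 1, for 20 in replicate 2, for 24 in replicate 3 and for 30 in replicate 4, where all tested genes gave 49% to 50.1%. The difference was greatest in replicate 4, and L192P replicate 4 was the lowest of L192P replicates 2 to 4 for 29 of the 31 genes. Without that library the median log2 fold change over the 31 genes was -0.07, without WT replicate 3 it was -0.04, without L192P replicate 1 it was -0.05, without L192P replicate 3 it was -0.18, and without WT replicate 1 it was -0.20. Of the 31 genes, 21 were below 0 without L192P replicate 1, 25 without WT replicate 3 and 26 without L192P replicate 4, against 30 without WT replicate 1. The stage medians moved with single libraries as well. Between leaving out WT replicate 1 and leaving out L192P replicate 1, the median went from -0.19 to 0.03 for the transcription factors, from -0.24 to 0.01 for the precursor genes and from -0.155 to 0.108 for the newly formed stage. That of the myelinating genes stayed below 0 whichever library was left out, between -0.21 and -0.05.

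**Figure D4:**
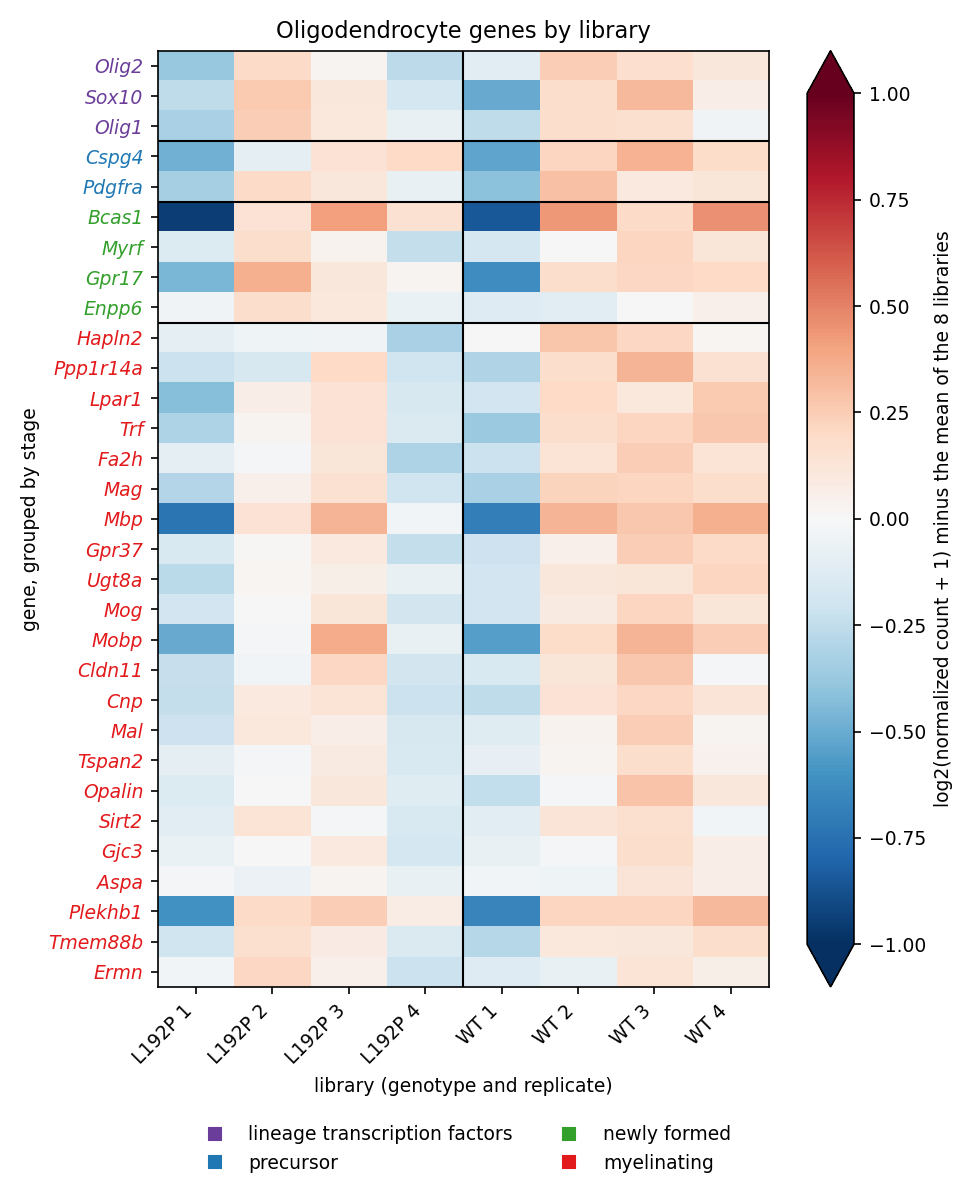
Log2 of normalized count plus 1, minus the mean over the 8 libraries, for the 31 genes (rows, by stage) in each library (columns). Replicate 1 of both genotypes and L192P replicate 4 are mostly blue (below the mean), and WT replicate 3, the highest library for 15 of 31 genes, is mostly red.

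Leaving out replicate 1 of both genotypes gave a median log2 fold change of -0.13 over the 31 genes, with 30 of 31 below 0 and none called by DESeq2. In those 6 libraries 8 genes had an unadjusted p under 0.05, all lower in L192P (Fa2h, Gpr37, Hapln2, Mag, Mbp, Ppp1r14a, Trf and Ugt8a), against 13.6% of all tested genes in that fit. With the replicate number as a block, 7 of the 31 had an unadjusted p under 0.05, against 14.1% of all tested genes, and again none was called. These were Cldn11, Cnp, Hapln2, Lpar1, Mag, Olig2 and Ugt8a, all lower in L192P. Both counts lay above those shares, but the genes vary together and the lists were not tested as groups. Without WT replicate 1 alone, Trf was called lower (log2 fold change -0.28, DESeq2 adjusted p = 0.0498), in a fit that called 3.24% of all tested genes. The adjusted p of Trf ranged from 0.0498 to 1 over 16 alternatives, and the DESeq2 fit of all libraries gave 0.811.

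Other genes of the same stages were read from further lists. Of 13 further precursor genes, 6 had a log2 fold change below 0, with a median of 0.07, 1 at an unadjusted p under 0.05 and none called. Of 7 further genes of the newly formed stage, 2 were below 0, with a median of 0.07, 1 at an unadjusted p under 0.05 and none called. Of 35 further myelinating genes, 28 were below 0, with a median of -0.10, 4 at an unadjusted p under 0.05 and none called. Over all tested genes, 9.44% lay below this p.

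Further, 3 of these genes were singled out after their values were seen. Lhfpl3, a gene of the precursor list, was at 685, 717, 742.5 and 679 normalized counts in L192P, and at 579, 545, 644 and 586.5 in WT. Each L192P library lay above each WT library, but the share of all tested genes with this order was not taken. The lack of overlap is therefore not read as a result about this gene. Lhfpl3 had a log2 fold change of 0.27 ± 0.08, an unadjusted p of 0.00143 and a DESeq2 adjusted p of 0.0839. Cryab, a small heat shock protein found in myelinating cells, was called lower with the replicate block (adjusted p = 0.00764 by DESeq2, and between 0.00764 and 0.9 over 16 alternatives). In the fit without the block its adjusted p was 0.539. Tcf7l2, a Wnt pathway factor of newly formed oligodendrocytes that is also abundant in thalamic neurons, was at 620, 251.5, 1070 and 190.5 normalized counts in L192P, and at 157, 207, 220.5 and 162 in WT (DESeq2 adjusted p = 0.204). L192P replicates 1 and 3 lay far above the rest.

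Markers of other cells and regions were read beside these values. The 4 markers of striatum read here (Drd1, Adora2a, Ppp1r1b and Rgs9), a region under the cortex crossed by myelinated fibre bundles, had log2 fold changes below 0 in 4 of 4 with a median of -0.20. Their summed normalized counts were 15160 to 19140 in L192P and 18770 to 22110 in WT, which overlapped. None was called by DESeq2, and 2 of the 4 had an unadjusted p under 0.05, against 9.44% of all tested genes. With the replicate block, which called 533 of 12536 tested genes, Adora2a and Ppp1r1b were called lower. The 5 excitatory neuron markers were below 0 in 5 of 5, with a median of -0.24 and sums of 78720 to 84610 in L192P and 78640 to 99150 in WT. None was called without the replicate block, and Slc17a7, Neurod6 and Tbr1 were called lower with it. The 6 microglia markers were above 0 in 6 of 6, with a median of 0.24 and sums of 4615 to 8272 in L192P and 4869 to 6205 in WT, and Cx3cr1 was called higher with the block only. The 5 endothelial markers were above 0 in 5 of 5, with a median of 0.33 and sums of 292 to 1061 and 340 to 885, and Slco1a4 was called higher with the block only. The 7 astrocyte markers had a median of -0.01, sums of 44790 to 70070 in L192P and 50240 to 71860 in WT, and none called.

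Of 6 inhibitory neuron markers 3 had an unadjusted p under 0.05, against 9.44% of all tested genes. Gad2 was called higher (DESeq2 adjusted p = 0.0235), with a median log2 fold change over the list of 0.03. With the replicate block Pvalb was called lower as well. The 5 markers each of blood, choroid plexus and hippocampus had medians of 0.25, 0.06 and -0.04, with none called. Schwann cells, which make myelin in peripheral nerve, were near absent: of their 4 markers Pmp2 was at 0 in every library, and the sums were 32.3 to 62.6 normalized counts in L192P and 54.3 to 65.5 in WT. For the striatal, neuronal, microglial and vascular lists, the part of those cells or regions in the values of the oligodendrocyte genes was not tested.

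Of the 31 genes, 18 share exon positions with a gene on the opposite strand and 2 with a gene on the same strand (Mobp with Gm38642 and Pdgfra with Mir7025). Among those described above, Hapln2 overlaps Gm19439, Mbp overlaps Gm58827, Olig2 overlaps Gm49614 and Bcas1 overlaps Bcas1os1 and Bcas1os2. The libraries were stranded, but how the counting treated strand is not given in the sources used here, so reads of such partners could not be told apart from those of the genes.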

How the data were processed

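The authors sequenced stranded mRNA libraries of mouse cortex and deposited raw counts per gene for each library, without pooling. The submitters' processing notes name STAR 2.7.9a, featureCounts 1.5.1 and DESeq2 1.40.2, and the genome was GRCm39. The strand setting and the annotation release are not given in the sources used here. A deposited table of size-factor normalized values was not used.

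From the counts, DESeq2 1.42.0 in R 4.3.3 was fitted on all genes with genotype as the only term, and calls were made where the adjusted p (Benjamini-Hochberg) was under 0.05, whatever the fold. Fold changes were not shrunk, and intervals are Wald 95% intervals. Alternatives were edgeR 4.0.16 after its expression filter, TMM or total-count factors, only genes with 10 or more counts in 4 libraries, independent filtering or the Cook filter off, a replicate block, each library left out, and replicate 1 of both genotypes left out. The programs were tested on simulated data. Libraries of a genotype differed beyond sampling noise in every pair (chi-square per degree of freedom 5.52 to 22.6). Over 13422 genes averaging 50 or more normalized counts, deviations from the group mean correlated between same-numbered libraries at 0.23 to 0.63. Between the other pairs they correlated at -0.38 to 0.14. The numbers of the labels were therefore treated as pairing the libraries in the replicate block only. The main fit, with its standard errors, intervals and p-values, does not take this pairing into account.

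The genes and lists were chosen with earlier results of these data known. Values in every library are given, in each stage, for the 2 genes with the smallest unadjusted p and the gene with the most normalized counts per kilobase of exon, and for genes called (none). Genes of the other oligodendrocyte lists were to be named where called. Mbp, Trf, Aspa, Ermn, Cryab, Tcf7l2 and Lhfpl3 are given beyond this rule, chosen after their values were seen. Some genes of the further lists are not reported here. Exon lengths, overlaps and 3′ UTRs come from GENCODE M39, which held 98.8% of the gene identifiers, and exon length is the union over all transcripts of a gene.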

Additional observations from a re-analysis of the deposited data

Results flagged for a closer look

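For each of the 31 genes in each genotype, the library farthest from the rest was compared with the range of its 4 libraries. Of 62 such sets 6 held a library whose gap to its nearest neighbour passed Dixon's 95% critical share of the range, which chance gives in about 1 in 20 sets, or 3.1. WT replicate 1 was low in 5 of the 6. It was at 16860 normalized counts for Mbp, against 32840 to 34800 in the other WT libraries, and at 4880 for Mag, against 6880 to 7111. For Trf it was at 8086, against 11810 to 12570, and for Gpr17 at 742.1, against 1295 to 1322. For Plekhb1 it was at 3028, against 5538 to 5999. The other case was L192P replicate 3, which was high for Ppp1r14a at 721.8 normalized counts, against 542.8 to 561.0. The genes vary together, so these sets are not independent.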

How the results depend on the processing

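Over 16 alternatives the log2 fold changes of the 31 genes gave 496 values, of which 470 kept their sign and stayed uncalled, 25 changed sign and 1 became called (Trf without WT replicate 1). The number of genes called over all genes was 253. It was 53 with edgeR, 533 with the replicate block, 500 without replicate 1 of both genotypes, and 112 to 496 with 1 library left out. Leaving out 1 library called 0 or 1 of the 31 genes lower. The median log2 fold change over the 31 genes was below 0 in every alternative. With 1 library left out, the median ran from -0.191 to 0.031 for the transcription factors, -0.239 to 0.013 for the precursor genes, -0.155 to 0.108 for the newly formed stage and -0.211 to -0.051 for the myelinating genes. Sign changes were to -0.002 for Gpr17 with TMM factors, to 0.005 for Olig1 with total-count factors, and to -0.016 for Ermn and -0.027 for Gpr17 without replicate 1 of both genotypes. With 1 library left out, log2 fold changes ran from -0.342 to 0.028 for Mbp, -0.282 to 0.01 for Mobp, -0.111 to 0.075 for Olig1, -0.191 to 0.059 for Sox10, -0.345 to 0.092 for Bcas1, -0.189 to 0.031 for Pdgfra, -0.237 to 0.101 for Plekhb1, -0.058 to 0.084 for Ermn, -0.161 to 0.139 for Gpr17 and -0.165 to 0.01 for Opalin. The replicate block changed no call among the 31 genes. With 1 library left out or replicate 1 left out, fewer libraries were fitted. For the other changes the cause was not tested. With 4 libraries per genotype and genotype as the only term, the 95% interval took in 0 for every gene but Hapln2. The replicate block gave 7 of the 31 genes an unadjusted p under 0.05 by DESeq2, against 14.1% of all tested genes.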
